A study of Mus musculus with 8 samples.

Results

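The contractile genes of smooth muscle and of the myofibroblast were read in fibroblasts from mouse hearts. The set held 10 genes, Acta2, Tagln, Cnn1, Myh11, Mylk, Des, Actg2, Myl9, Lmod1 and Smtn, taken by symbol from the 24306 genes that the array's annotation names. They were read by 24 of the 62976 spots, and each gene was represented by its brightest spot on average. The groups were Siah knockout cells in hypoxia, Siah knockout cells in normoxia, wild-type cells in hypoxia and wild-type cells in normoxia, with 2 samples each. All were freshly isolated primary cells grown in DMEM with 10% FBS, and hypoxia was 6 h at 1% O2. RNA was labelled with the single dye Cy3, and values are log2 intensities as the authors normalized them. The labels give neither the animals' age, sex and strain nor which samples share an animal or culture, so the p-values cover only the variation among these samples, which may be technical.

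Fibroblasts of the injured heart can become myofibroblasts, which build stress fibres from smooth muscle actin and pull on the matrix they deposit. In smooth muscle and in these cells, contraction starts when myosin light chain kinase phosphorylates the regulatory light chain of myosin, which then slides along actin. Many of the genes are driven by serum response factor, which binds the CArG box in their promoters together with myocardin or the myocardin-related factors MRTF-A and MRTF-B. Growth on stiff plastic in serum is known to raise the same programme in cultured fibroblasts.

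The Siah genes encode ubiquitin ligases, and the genotype label does not say which of them was altered. Siah2 gave 9.29 and 8.87 in knockout-labelled hypoxia and 6.60 and 7.39 in knockout-labelled normoxia, against 9.55 and 8.96 in wild-type hypoxia and 9.04 and 8.71 in wild-type normoxia. It was lower in both knockout-labelled normoxic samples than in any wild-type sample and overlapped wild type in hypoxia, so the samples are called knockout-labelled throughout. Siah1a and Siah1b lay between 7.89 and 9.44 in every sample. The Y-linked Eif2s3y averaged 3.61 ± 0.28 in knockout-labelled samples and 8.93 ± 0.14 in wild-type samples (SD, n = 4 each), so sex-linked expression went with the genotype label and cannot be told apart from it. All 10 fibroblast markers were above a mean of 3.39, the level at or under which a gene counted as dim and was not tested. So were all 14 macrophage and leukocyte markers, such as Csf1r, the receptor of a macrophage growth factor, at 11.9 to 14.3.

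Promoter windows from RefSeq (build GRCm38.p6), from 250 bases before to 50 bases after a transcript start, were at hand for 7 of the 10 genes, and not for Tagln, Myh11 and Actg2. The windows of Acta2 (chr19:34255324-34255623, minus strand) and Myl9 (chr2:156775214-156775513, plus strand) are shown because they hold the box by which serum response factor is known to act. That of Mylk (chr16:34784700-34784999, plus strand), placed around a transcript start inside the annotated gene, is shown because Mylk was the 1 gene of the set whose level passed the test. Whether the Mylk spots read the transcript from that start was not tested. Capitals mark CArG boxes, exact or with 1 G or C among the A and T bases between CC and GG, and the MCAT element CATTCC, bound by TEAD factors, on either strand.
Acta2: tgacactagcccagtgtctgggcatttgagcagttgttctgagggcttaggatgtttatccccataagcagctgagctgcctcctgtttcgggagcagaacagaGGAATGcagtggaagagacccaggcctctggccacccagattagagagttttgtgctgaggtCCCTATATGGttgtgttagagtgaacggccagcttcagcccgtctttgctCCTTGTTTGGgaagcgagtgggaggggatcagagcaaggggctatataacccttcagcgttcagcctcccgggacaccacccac
Myl9: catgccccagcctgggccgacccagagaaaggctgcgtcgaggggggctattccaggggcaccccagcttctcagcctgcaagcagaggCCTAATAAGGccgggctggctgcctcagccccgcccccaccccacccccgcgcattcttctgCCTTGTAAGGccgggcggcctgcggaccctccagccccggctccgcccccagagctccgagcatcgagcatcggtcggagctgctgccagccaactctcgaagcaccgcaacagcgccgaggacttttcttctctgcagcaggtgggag
Mylk: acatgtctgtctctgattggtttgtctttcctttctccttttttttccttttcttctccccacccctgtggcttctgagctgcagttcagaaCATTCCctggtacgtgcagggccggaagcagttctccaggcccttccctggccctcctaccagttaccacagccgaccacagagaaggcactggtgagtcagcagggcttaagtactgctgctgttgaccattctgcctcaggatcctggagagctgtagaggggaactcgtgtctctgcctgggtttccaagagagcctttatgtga

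In the Acta2 window the CArG-like matches CCCTATATGG and CCTTGTTTGG began 84 and 34 bases before the transcript start, and an MCAT match began 146 bases before it. Myl9 held the exact CArG box CCTAATAAGG at 161 bases and the CArG-like CCTTGTAAGG at 99 bases before its start. The Mylk window held an MCAT match at 158 bases and no CArG match. An exact CArG box was found in 1 of the 7 windows, against 1.63% of all 32851 promoter windows searched on both strands, and a CArG-like match in Acta2 and Myl9, against 8.50%. MCAT matches lay in the windows of Acta2, Mylk, Lmod1 and Smtn, against 14.7% of all windows, and none overlapped a CArG match. The hypoxia response core ACGTG, searched on both strands, lay in the windows of Mylk and Cnn1, against 19.6% of all windows. It began 147 bases before the start in Mylk and 4 bases after it in Cnn1. A match describes the letters of the window and is not a measured binding site.

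Acta2 encodes smooth muscle alpha-actin, the usual marker of a myofibroblast. Its brightest spot gave 16.00 in all 4 knockout-labelled samples, against 16.00 and 15.98 in wild-type hypoxia and 15.99 and 16.00 in wild-type normoxia. Tagln, which encodes the actin-binding protein transgelin, lay between 15.98 and 16.00 in the 8 samples, and Myl9, the regulatory light chain of smooth muscle myosin, between 15.94 and 15.99. The highest value in the whole table is 16.00, so these 3 genes sat at the top of the scale in every sample, together with 49 of the other genes whose brightest spot averaged over 15.9. At that level a spot cannot show a further rise and may hide a change, so their differences near 0 between groups are no measure of equal expression.

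Dimmer spots of Acta2 lay inside the scale. Spot 2 gave 15.02 and 15.26 in knockout-labelled hypoxia and 15.22 and 15.05 in knockout-labelled normoxia, against 14.74 and 14.88 in wild-type hypoxia and 15.02 and 15.00 in wild-type normoxia. Spot 3 gave 13.08 and 13.32 in knockout-labelled hypoxia and 13.08 and 13.44 in knockout-labelled normoxia, against 13.12 and 12.56 in wild-type hypoxia and 13.02 and 12.54 in wild-type normoxia. Both were slightly higher in knockout-labelled samples on average, by a log2 of 0.23 (SE 0.13) and 0.42 (SE 0.21), and neither passed the test over 29202 spots (adjusted p = 0.709 and 0.638 with limma). The genotypes overlapped on both spots. On spot 3, replicate 2 lay above replicate 1 in both knockout-labelled groups and below it in both wild-type groups. With hypoxia, spots 2 and 3 differed by -0.10 (SE 0.13) and 0.00 (SE 0.21). Spot 4, with a mean of 4.27, ran from 3.32 to 6.02 with no order by group. Tagln had no second spot, and the second spot of Myl9 averaged 3.12, under the dim level, so for these genes no other reading inside the scale was at hand.

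**Figure D1:**
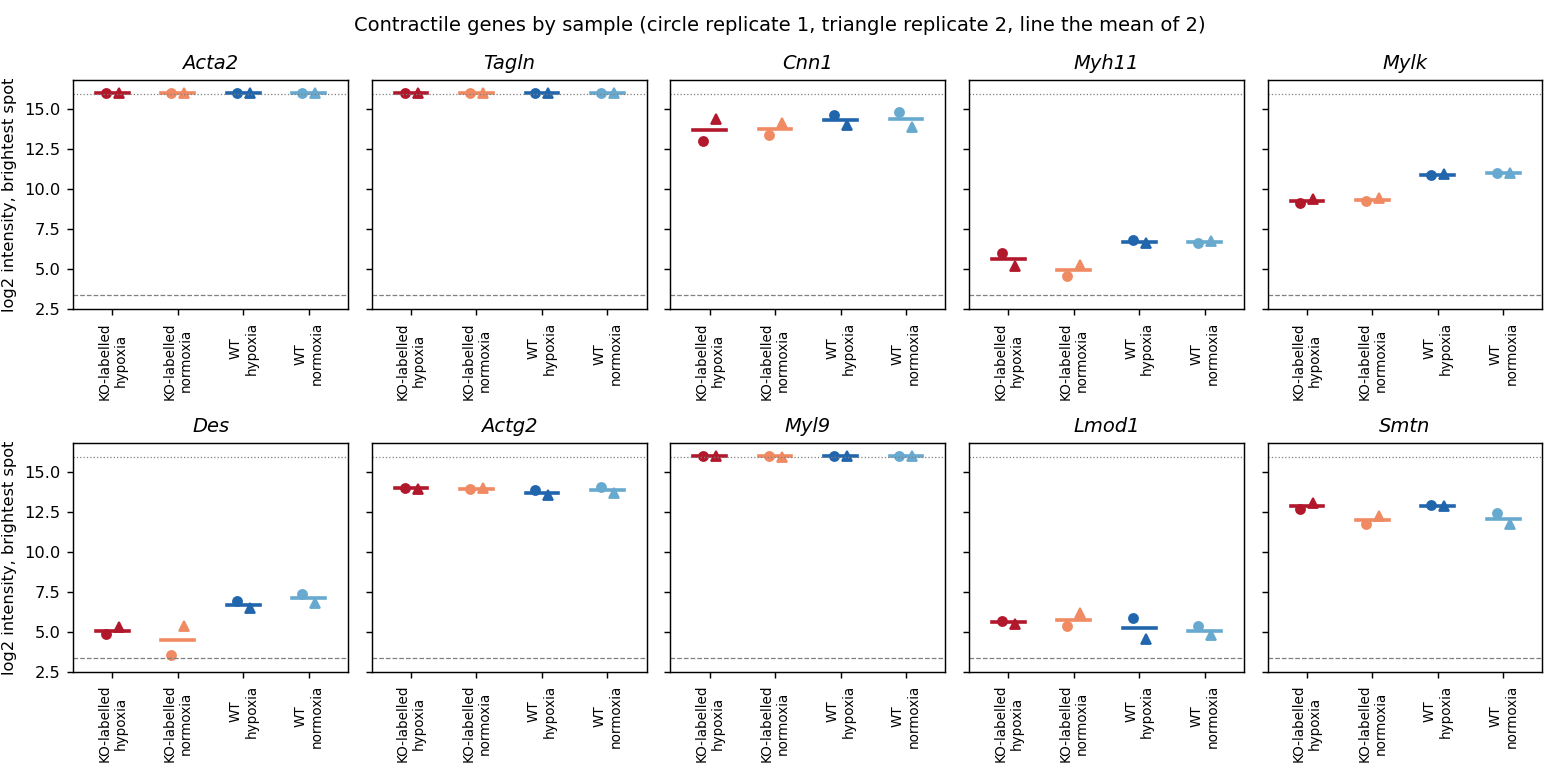
Log2 intensity of the brightest spot of each of the 10 genes (y axis, one scale for all panels) in the 4 groups (x axis). Circles are replicate 1, triangles replicate 2 and lines the mean of 2 samples, the dotted line marks 15.9 and the dashed line the dim level of 3.39. Acta2, Tagln and Myl9 lie at the top of the scale in every sample, and Mylk, Myh11 and Des lie lower in every knockout-labelled sample than in any wild-type sample.

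Actg2 encodes the smooth muscle gamma-actin. It gave 14.00 and 13.92 in knockout-labelled hypoxia and 13.91 and 13.98 in knockout-labelled normoxia, against 13.85 and 13.54 in wild-type hypoxia and 14.05 and 13.71 in wild-type normoxia. The genotypes overlapped in normoxia and did not in hypoxia, where both knockout-labelled samples were higher. Averaged over oxygen the difference was 0.17 (95% interval -0.19 to 0.52, adjusted p = 0.797 with limma), and without 1 sample in turn it ran from 0.08 to 0.25. Acta2 and Actg2 are closely alike in sequence, and cross-reading between their spots was not tested.

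Of the myosin genes and their kinase, Mylk passed the test between the genotypes. Mylk, the kinase that phosphorylates the regulatory light chain, gave 9.11 and 9.36 in knockout-labelled hypoxia and 9.23 and 9.46 in knockout-labelled normoxia, against 10.88 and 10.91 in wild-type hypoxia and 11.01 and 10.98 in wild-type normoxia. All 4 knockout-labelled samples lay below all 4 wild-type samples, and the gap was wider than the whole spread within either genotype. Averaged over oxygen, Mylk fell by a log2 of 1.66 (SE 0.13, 95% interval -1.98 to -1.34, adjusted p = 0.0298 over all genes with limma), which is 3.16-fold lower. It was the 1 gene called of the 10, where 0.047% of the 17014 genes tested were called in that comparison, 0.0411% as lower. In normoxia and in hypoxia alone the differences were nearly alike, -1.65 (SE 0.19, adjusted p = 0.171) and -1.66 (SE 0.19, adjusted p = 0.301), and neither passed with 2 samples a group. The call was lost without each of the 8 samples in turn (adjusted p between 0.0689 and 0.195, log2 fold change between -1.72 and -1.60), with the replicate number as a block (adjusted p = 0.136) and with samples of one genotype and number taken as one culture, as a random block (adjusted p = 0.114).

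Mylk has 5 spots. Spot 2 gave 5.05 and 5.69 in knockout-labelled hypoxia and 5.36 and 5.51 in knockout-labelled normoxia, against 7.52 and 7.15 in wild-type hypoxia and 7.72 and 6.84 in wild-type normoxia. It showed the same order of the genotypes, with no overlap and a difference of -1.91 (SE 0.26, adjusted p = 0.109 over spots). Spot 3, with a mean of 4.16, differed by -0.85 (SE 0.38). Spots 4 and 5, with means of 4.16 and 3.24, are annotated to clone sequences rather than to the reference transcript of the first 3, and differed by 0.01 and -0.13. When all 5 spots were averaged, Mylk differed by -0.91 and was not called (adjusted p = 0.115).

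Myh11, the smooth muscle myosin heavy chain and the most restricted marker of that lineage, gave 6.04 and 5.20 in knockout-labelled hypoxia and 4.60 and 5.29 in knockout-labelled normoxia, against 6.79 and 6.65 in wild-type hypoxia and 6.65 and 6.74 in wild-type normoxia. The 4 wild-type samples lay within a narrow band above every knockout-labelled sample. The log2 difference was -1.42 (SE 0.25, 95% interval -2.03 to -0.82) and missed the threshold (adjusted p = 0.136). Of its other 3 spots, those annotated to a reference transcript gave -1.31 (SE 0.26) and -1.25 (SE 0.21), and the dimmest, annotated to a clone with a mean of 3.53, gave 0.30 (SE 0.23).

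Des encodes desmin, the intermediate filament of muscle, which pericytes and some fibroblasts also make. It gave 4.87 and 5.31 in knockout-labelled hypoxia and 3.57 and 5.39 in knockout-labelled normoxia, against 6.92 and 6.50 in wild-type hypoxia and 7.39 and 6.84 in wild-type normoxia. No sample of one genotype overlapped the other. The difference of -2.12 (SE 0.41, 95% interval -3.13 to -1.12) was the largest in the set and missed the threshold (adjusted p = 0.161). It was -1.67 without knockout-labelled normoxia replicate 1, the lowest sample. The second Des spot, with a mean of 3.76 just above the dim level, gave -0.25 (SE 0.17).

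**Figure D2:**
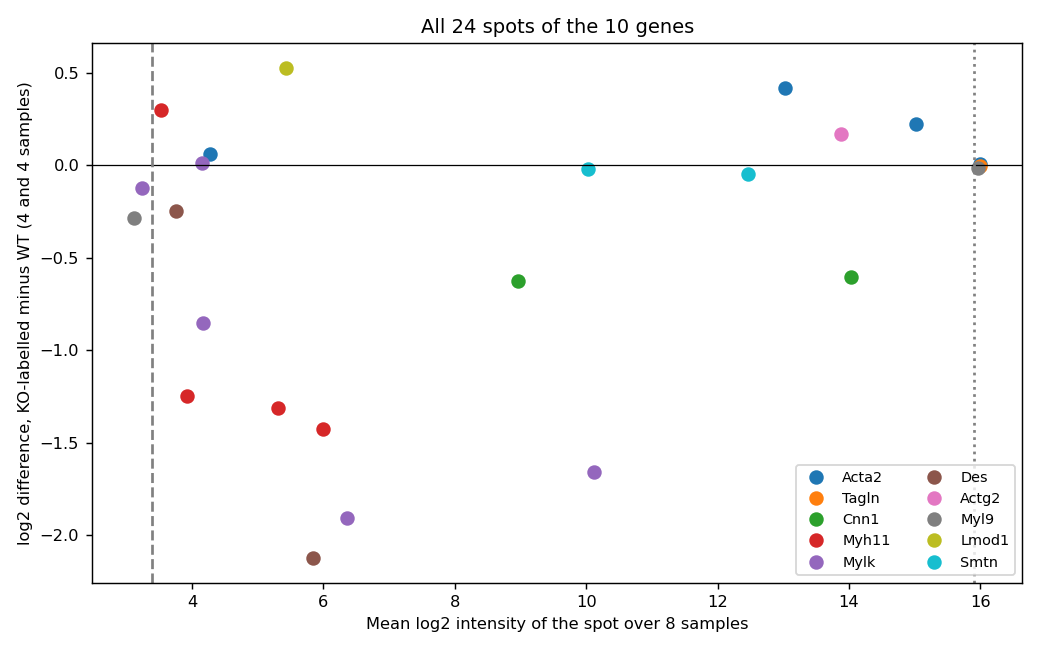
Difference between knockout-labelled and wild-type samples (y axis, log2, 4 samples each) against the mean log2 intensity (x axis) for all 24 spots of the 10 genes, coloured by gene. The dotted line marks 15.9 and the dashed line the dim level of 3.39. The spots at the top of the scale lie near 0, while 3 spots of Mylk, 3 of Myh11 and the brighter spot of Des lie between -2.12 and -0.85.

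Calponin, Cnn1, damps the actin-activated activity of myosin. It gave 13.02 and 14.37 in knockout-labelled hypoxia and 13.38 and 14.13 in knockout-labelled normoxia, against 14.63 and 14.00 in wild-type hypoxia and 14.82 and 13.88 in wild-type normoxia. Replicate 2 lay above replicate 1 in both knockout-labelled groups, and replicate 1 above replicate 2 in both wild-type groups, so samples of the same genotype and number went together across oxygen. The genotypes overlapped, with a difference of -0.61 (95% interval -1.57 to 0.36, adjusted p = 0.722 with limma; -0.94 to -0.27 without 1 sample in turn), and the second Cnn1 spot gave -0.62 (SE 0.49) with the same order of the samples within each genotype. Srf, the gene of serum response factor itself, named after its values were seen, had that order too. Srf gave 9.89 and 11.19 in knockout-labelled hypoxia and 10.20 and 11.33 in knockout-labelled normoxia, against 10.73 and 9.36 in wild-type hypoxia and 11.23 and 9.90 in wild-type normoxia. The order was not particular to Cnn1 and Srf, and Vcl and Tnc had it as well. Across all genes tested, same-numbered samples deviated apart between the genotypes (r of -0.38 to -0.26). A link between Srf and Cnn1 was not tested.

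Lmod1, a leiomodin that starts actin filaments in smooth muscle, gave 5.73 and 5.52 in knockout-labelled hypoxia and 5.37 and 6.18 in knockout-labelled normoxia, against 5.89 and 4.59 in wild-type hypoxia and 5.40 and 4.81 in wild-type normoxia. The groups overlapped, and the genotype difference of 0.53 (95% interval -0.32 to 1.37, adjusted p = 0.725) did not pass. Leaving out wild-type hypoxia replicate 2 gave 0.20, and leaving out replicate 1 of that group gave 0.85.

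In the comparison of the genotypes over both oxygen levels, 3 of the 10 genes had no overlap between 4 and 4 samples, against 8.81% of all genes tested. The median log2 difference of the 10 was -0.03, beside 0.03 over all genes, and 3 genes were higher and 7 lower, with the 3 genes at the top of the scale among them at 0.01, -0.01 and -0.02. At an unadjusted p under 0.05 there were 3 of the 10, against 9.95% of all genes. Within normoxia 0 of the 10 were called by limma, against 0.00588% of all genes, 3 had an unadjusted p under 0.05, against 6.48%, and 4 had no overlap between 2 and 2 samples, against 31.7%. These were Mylk, Myh11, Des and Acta2, the last at the top of the scale, where an order of samples is no measurement. Within hypoxia 0 of the 10 were called, again against 0.00588%, 3 had an unadjusted p under 0.05, against 6.24%, and 6 had no overlap, against 32%. Of these, 4 lay inside the scale, Mylk, Myh11, Des and Actg2. Tagln and Myl9 lay at the top of it, where again an order of samples is no measurement. Without knockout-labelled hypoxia replicate 1 the Cnn1 difference in hypoxia was 0.05, against -0.62 with it.

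**Figure D3:**
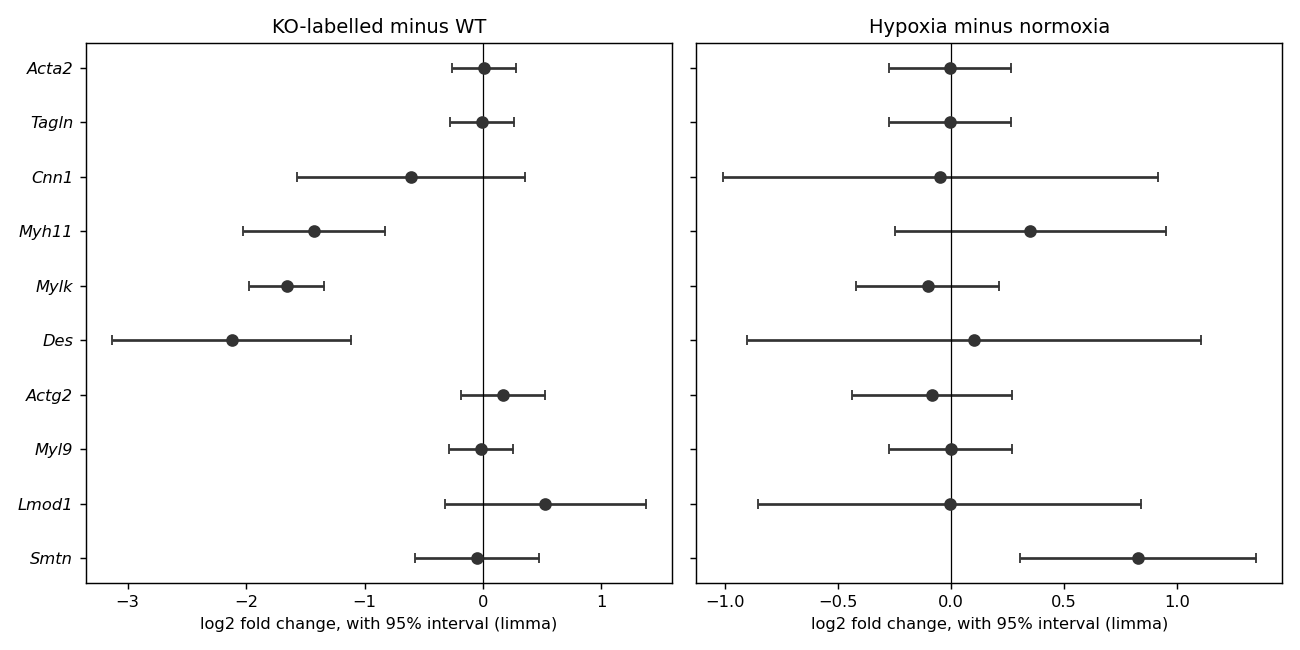
Log2 fold change of each of the 10 genes (points) with its 95% interval from limma (bars), knockout-labelled minus wild type on the left and hypoxia minus normoxia on the right, each over 4 and 4 samples. On the left Mylk at -1.66, Myh11 at -1.42 and Des at -2.12 have intervals below 0, and on the right Smtn at 0.83 has an interval above 0. The intervals treat all samples as independent, so those on the left may be too narrow and those on the right too wide.

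With low oxygen none of the 10 genes passed the limma test (1 at an unadjusted p under 0.05), and Smtn had the largest difference. Smtn encodes an actin-binding protein of contractile smooth muscle. It gave 12.67 and 13.06 in knockout-labelled hypoxia, against 11.76 and 12.25 in knockout-labelled normoxia, and 12.92 and 12.84 in wild-type hypoxia, against 12.42 and 11.75 in wild-type normoxia. All 4 hypoxic samples lay above all 4 normoxic samples, which was so for 1 of the 10 genes and for 2.16% of all genes. The difference was 0.83 (SE 0.22, 95% interval 0.30 to 1.35), or 1.77-fold, with an adjusted p of 1.00 over all genes in limma and an unadjusted p of 0.00804. Under the 11 alternative gene-level fits of all 8 samples, Smtn differed by 0.77 to 0.83, with a lowest adjusted p of 0.294 in limma. Its second spot gave 10.20 and 10.53 in knockout-labelled hypoxia, against 9.67 and 9.70 in knockout-labelled normoxia, and 10.51 and 10.30 in wild-type hypoxia, against 10.18 and 9.17 in wild-type normoxia. That spot again had no overlap, and its difference was 0.71 (SE 0.25). By genotype the Smtn differences were 0.86 (SE 0.31) in knockout-labelled cells and 0.79 (SE 0.31) in wild-type cells (0.45 to 1.13 without 1 sample in turn), and the difference between them was 0.07 (95% interval -0.98 to 1.11).

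The other 9 genes had differences with hypoxia between -0.10 and 0.35, each with an interval that held 0. Mylk had a difference of -0.10 (95% interval -0.42 to 0.21), Cnn1 -0.05 (-1.01 to 0.92), Des 0.10 (-0.91 to 1.11) and Myh11 0.35 (-0.25 to 0.95). The median of the 10 was 0.00, beside -0.01 over all genes. It lay between the values of Tagln and Acta2. Like Myl9, these genes sat at the top of the scale, where a difference near 0 is no measure of equal expression. limma called 0 of the 10 in knockout-labelled cells, in wild-type cells, in the average and in the difference of the responses, where 0% of all genes were called in each comparison. At an unadjusted p under 0.05 there was 1 gene of the 10, Smtn, in each of the first 3 comparisons and 0 in the difference of the responses, against 2.60%, 3.62%, 3.76% and 2.45% of all genes. Groups of 2 and 2 samples did not overlap for 2 of the 10 in knockout-labelled cells, against 21.6% of all genes, and for 2 of the 10 in wild-type cells, against 23.2%. These were Smtn and Tagln, at the top of the scale, in knockout-labelled cells, and Smtn and Mylk in wild-type cells. The Des difference with hypoxia in knockout-labelled cells was 0.60, and -0.31 without knockout-labelled normoxia replicate 1. With knockout-labelled cells compared with wild-type cells in how they responded, Des differed by 1.01 (SE 0.83) and Myh11 by 0.65 (SE 0.50). The Des value was 0.10 without knockout-labelled normoxia replicate 1 and 1.92 without knockout-labelled normoxia replicate 2. The Myh11 value was 0.23 without knockout-labelled hypoxia replicate 1 and 1.07 without knockout-labelled hypoxia replicate 2.

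The list of other contractile and serum response factor target genes, such as tropomyosins, caldesmon and vinculin, had 20 tested members of 22. Between the genotypes 15 were higher and 5 lower with a median of 0.12, and 0 were called by limma (1 at an unadjusted p under 0.05). Hspb6, a small heat shock protein of relaxing smooth muscle, had the smallest p at -0.46 (SE 0.13, adjusted p = 0.283), and the integrin subunit Itga8 had 0.66 (SE 0.31). With hypoxia 8 were higher and 12 lower with a median of -0.01. Synpo2, an actin-bundling protein of muscle, gave 9.20 and 9.79 in knockout-labelled hypoxia, against 8.16 and 8.76 in knockout-labelled normoxia, and 9.92 and 9.63 in wild-type hypoxia, against 9.27 and 8.80 in wild-type normoxia. Its difference of 0.88 (SE 0.23) had an unadjusted p of 0.00795 and an adjusted p of 1.00.

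The regulators had 8 tested members of 10, with a median of 0.05 between the genotypes and 0.06 with hypoxia, and limma called 0 (0 and 1 at an unadjusted p under 0.05). The MRTF-A gene Mrtfa differed by -0.18 (SE 0.13) between the genotypes and the MRTF-B gene Mrtfb by -0.13 (SE 0.13). Myocd, the gene of myocardin, gave 5.11 and 5.63 in knockout-labelled hypoxia, against 3.78 and 4.68 in knockout-labelled normoxia, and 5.47 and 5.03 in wild-type hypoxia, against 5.14 and 3.96 in wild-type normoxia. Its difference with hypoxia was 0.92 (SE 0.35, unadjusted p = 0.0360, adjusted p = 1.00), and the groups overlapped in wild-type cells. The 7 cytoplasmic actin and non-muscle myosin genes had medians of 0.01 between the genotypes and 0.00 with hypoxia, and 0 were called (0 at an unadjusted p under 0.05 in either). Of these, Actb and Actg1 averaged 15.99 and 15.96, at the top of the scale. Myl6, whose values are both medians, averaged 15.89 and Myl12a 15.81, close to the top. Differences near 0 at that level are no measure of equal expression. Myh10, a non-muscle myosin heavy chain, had -0.17 (SE 0.13) between the genotypes. The myofibroblast and TGF-beta response genes had 11 tested members of 12, with medians of -0.05 between the genotypes and -0.03 with hypoxia, and 0 were called (0 and 1 at an unadjusted p under 0.05). Ccn2 of that list averaged 15.91, also at the top of the scale. Tgfb1, the ligand, had -0.59 (SE 0.28, adjusted p = 0.584) between the genotypes. Fn1, fibronectin, had 0.32 (SE 0.12) with hypoxia on average, made of -0.08 (SE 0.18) in knockout-labelled cells and 0.71 (SE 0.18) in wild-type cells. The difference of its responses was -0.79 (SE 0.25, unadjusted p = 0.0181, adjusted p = 1.00 with limma), the 1 gene of this list with an unadjusted p under 0.05 there.

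**Figure D4:**
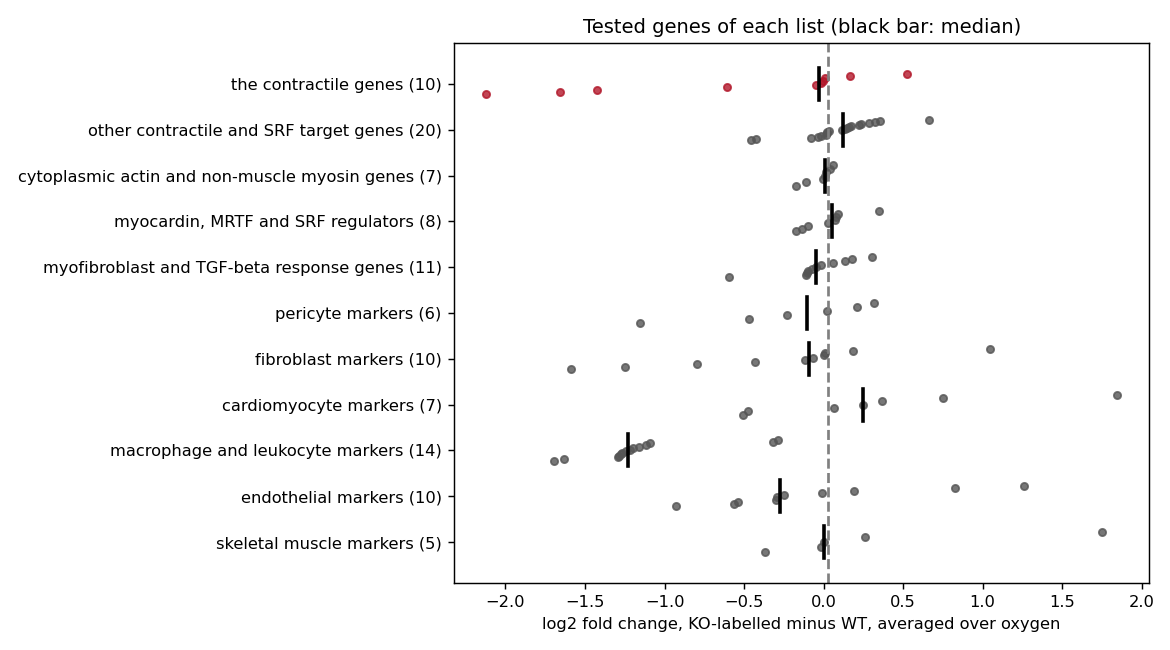
Log2 difference between knockout-labelled and wild-type samples, averaged over oxygen (x axis), for each tested gene (points) of the 10 contractile genes and of 10 other lists, with the number tested in brackets. Black bars are medians and the dashed line is the median of all 17014 genes, 0.03. The contractile genes have a median of -0.03 with 3 genes far below it, and the macrophage and leukocyte markers have a median of -1.23.

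Markers of other cell types were read beside the genotype difference, since in bulk samples fewer cells of a type and less RNA per cell cannot be told apart. Of the 14 macrophage and leukocyte markers, 14 had a lower mean in knockout-labelled than in wild-type samples, with a median of -1.23 and 0 called by limma (12 at an unadjusted p under 0.05). The log2 of their summed signal ran from 16.10 to 16.68 in knockout-labelled hypoxia and from 16.13 to 16.67 in knockout-labelled normoxia, against 16.97 to 17.19 in wild-type hypoxia and 17.00 to 17.24 in wild-type normoxia. Lyz2, the brightest of the 14, gave 15.97 to 15.98 in wild-type samples, at the top of the scale, and 15.40 to 15.96 in knockout-labelled samples. The summed signal may therefore understate a difference. None of the 14 lay under the dim level. Their part in the differences of Mylk, Myh11 and Des was not tested. Within the knockout-labelled samples the mean of the 14 markers was 11.50 in hypoxia and 11.46 in normoxia for replicate 1, and 10.58 in hypoxia and 10.56 in normoxia for replicate 2. At both oxygen levels 12 of the 14 were lower in replicate 2 than in replicate 1, and Csf1r and Itgam were higher.

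**Figure D5:**
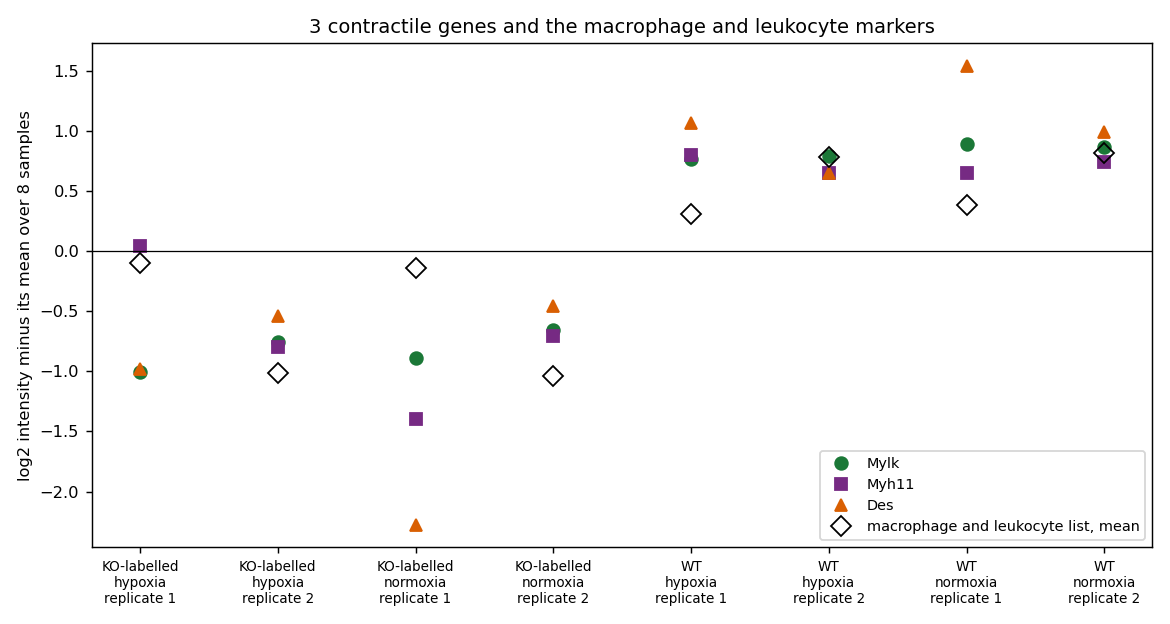
Log2 intensity minus its mean over the 8 samples (y axis) in each sample (x axis) for Mylk, Myh11 and Des and for the mean of the 14 macrophage and leukocyte markers. Each of the 4 lies lower in every knockout-labelled sample than in any wild-type sample.

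Pericyte markers, which smooth muscle cells share in part, had 6 tested members of 9 and a median of -0.10 between the genotypes, with 3 higher and 3 lower, 0 called by limma and 0 at an unadjusted p under 0.05. Abcc9, Kcnj8 and Vtn lay under the dim level. The log2 of their summed signal was 13.33 to 13.58 in knockout-labelled hypoxia and 13.30 to 13.57 in knockout-labelled normoxia, against 13.48 to 13.52 in wild-type hypoxia and 13.50 to 13.51 in wild-type normoxia. Mcam had 0.31 (SE 0.17) and Pdgfrb -0.23 (SE 0.14). Cardiomyocyte markers had 7 tested of 10 and a median of 0.25, with Myh6, Myh7 and Tnni3 under the dim level and Tnnt2 at 1.85 (SE 0.31, adjusted p = 0.131). Skeletal muscle markers had 5 tested of 8 and a median of 0.00, with Ckm, Myog and Myod1 under the dim level and Myh1 at 1.75 (SE 0.25, adjusted p = 0.104). The 10 endothelial markers had a median of -0.27, with Emcn at 1.26 (SE 0.19) and Robo4 at -0.93 (SE 0.24). The 10 fibroblast markers had a median of -0.09, with 3 higher and 7 lower. Fap was at -1.59 (SE 0.25) and Dcn at -0.79 (SE 0.14), and Thy1, named after its values were seen, was at 1.05 (SE 0.18, adjusted p = 0.136). limma called 0 in each of these lists. At an unadjusted p under 0.05 there were 2 cardiomyocyte, 1 skeletal muscle, 3 endothelial and 5 fibroblast markers.

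The genes whose pattern over the 8 samples was most like that of Mylk were Cpxm1, Plxnd1, Zmynd15, Rab3b and Csf1r. Likeness was the root mean square difference of log2 values after each gene's own mean was taken off, and it was 0.20, 0.23, 0.23, 0.23 and 0.24 for these genes, where Mylk itself varied by 0.84 about its mean. Csf1r averaged 12.30 in knockout-labelled samples and 13.94 in wild-type samples. For Acta2 the same measure named Gm8580, Timp1, S100a6, S100a4 and Rpl37a. Each of these lay between 15.97 and 16.00 in every sample, at the top of the scale like Acta2 itself.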

How the data were processed

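Single-colour arrays from 8 samples were used. The authors deposited 1 table of normalized log2 intensities. The log2 base was read from the values (2.13 to 16.00), and all samples shared a median of 3.94. The submitters' processing notes name limma, with no version. Background correction, normalization and saturation flags are not given in the sources used here. In all, 10 values were missing, and 0 of these lay in spots of the 10 genes.

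Spots were named by the platform annotation, with symbols updated through the RefSeq table of GRCm38.p6 (33704 spots by accession, 463 by synonym, 9774 kept). Of 62976 spots 43941 had 1 gene, 19035 none and 0 several. The brightest spot stood for a gene, the dimmest 30% of genes (mean of 3.39 or less) were left out, and 17014 were tested, all 10 genes of the set among them. limma 3.58.1 (R 4.3.3) fitted a mean for each group over all 8 samples, with 4 residual and 2.25 prior degrees of freedom. 7 comparisons were made, adjusted by Benjamini-Hochberg over all genes at 0.05, and intervals are limma's at 95%. The main fit took the 8 samples as independent. With samples of one genotype and number taken as one culture, their correlation was estimated at 0.43. Errors, intervals and p-values between the genotypes may therefore be too small, and those with hypoxia too large. Fold changes are knockout-labelled minus wild type or hypoxia minus normoxia. The fit was also run on simulated data with independent noise and planted genotype differences. These data held neither the correlation of same-numbered samples nor a top of the scale, so they do not test those limits.

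The set, the 10 other lists and the tests were chosen with earlier results of these data known. By rule the text names every gene of the set, of each other list the called genes or up to 2 with the smallest p, and the 5 genes most like Acta2 and Mylk. Fitting each spot alone, leaving out spots averaging over 15.9 and a crossed block were added after the data were seen. The number of arrays limits the precision.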

Additional observations from a re-analysis of the deposited data

How the results depend on the processing

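Of the 10 genes, Mylk was the 1 called between the genotypes averaged over oxygen. It remained called with quantile normalization, a common 75th percentile, no filter, the dimmest 50% of genes removed, a variance trend, a robust fit and spots averaging over 15.9 left out (adjusted p between 0.00481 and 0.0342). The deposited samples already shared their quantiles, with a 75th percentile of 7.65 in each, so rescaling them could change little. Leaving out spots over 15.9 did not touch the brightest Mylk spot, with a mean of 10.12. With spots averaged, with the replicate block and with the culture as random block, 0 genes of the set were called, and without each sample in turn the count was 0 to 0, where the lone sample left in a group is assumed to vary like the others. Mylk spot 4 fitted alone gave 0.0105, the sign turned, and the cause was not tested. Same-numbered samples deviated together between the oxygen levels of a genotype (r of 0.34 and 0.31 across genes, which are not independent) and apart between genotypes (-0.38 to -0.26), so the replicate number does not pair the genotypes. With crossed numbers as a block 2 were called, Mylk and Des (adjusted p = 0.0225 and 0.0370). That block follows the deviations seen in these same values and no label gives it, so its calls lend no support. The crossed block changed no other call in the set.

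Over all genes that comparison called 8. It called 45 with the dimmest 50% removed, 62 with a variance trend, 453 with crossed numbers, and 1 with the replicate or culture block. Without 1 sample it called 1 to 12. With hypoxia averaged over genotypes 15 rather than 0 genes were called with a variance trend or the culture block. In normoxia 3 were called with the dimmest 50% removed against 1, and 0 when only the groups compared were fitted. Without 1 sample the other comparisons called 0 to 8. In each of these 6 comparisons 0 genes of the set were called under every alternative run. Of 1440 values of single genes of the set under alternatives, 123 had a sign other than the main one, 22 of these where the main size was over 0.1. Depth here is signal, and spots at either end of the scale may understate a change, which was not tested.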
